A study of Danio rerio with 18 samples.

Results

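The genes described here belong to the families that guide growing axons and hold neurons together: semaphorins, ephrins, slits and netrins as ligands, plexins, neuropilins, Eph receptors and robo receptors as their receptors, and cadherins, protocadherins, NCAM, contactin, L1, lingo and lrrc4 proteins at the cell surface. They were taken by gene symbol alone, and cdh1 and cdh5, the epithelial and endothelial cadherins, were left out. The name rule took 69 of the 8793 genes that had a probe set with 1 gene symbol on a zebrafish (Danio rerio) Affymetrix array. Of these, 3 genes (unc50, lrrc40 and lrrc42) only resemble the families by name, so 66 were guidance or adhesion genes: 22 ligands, 17 receptors and 27 adhesion proteins. The 27 adhesion genes include cdh17 and cdh15, a kidney and gut cadherin and a muscle cadherin that are not mainly neural. The dcc netrin receptor and the unc5 receptors were not among the members measured. Each gene is represented by its brightest probe set over all 18 arrays, and every value is a log2 signal. A level under 5.15, the 30th percentile of group means, is called dim, and no fold change is given where the lower group was dim. Of the 69 genes, 10 were dim in all 6 groups (cdh13, cdh15, cntn2, epha6, l1cama, ncam1b, ncam2, pcdh1a6, sema3bl and sema4ab), and 40 were above that level in every group.

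The study compared the young mutant, which carries a lesion in the chromatin remodeling gene smarca4, with wild-type fish of the AB strain at 52 hours after fertilization. Both genotypes were sampled as whole embryos, as bare retinas and as retinas that kept the retinal pigment epithelium (RPE), giving 6 groups of 3 arrays. Each array was a pool of 10 embryos or dissected tissues, except for 9 in 1 mutant retina pool and 6 in all mutant RPE-attached pools. Mutants were staged by their wild-type siblings, and smarca4 was mutated in the whole animal, so a difference in the retina need not start there. Each array holds RNA of many cell types, so fewer cells of a type and less RNA per cell cannot be told apart.

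Axons steer by ligands that attract or repel them through receptors on the growth cone. Slits act through robo receptors, secreted semaphorins through neuropilin and plexin complexes, and ephrins through Eph receptors, which can also signal back into the ephrin-bearing cell. Cadherins and protocadherins bind partners on neighboring cells in the presence of calcium, whereas NCAM, contactins and L1 are immunoglobulin-type adhesion proteins. In the retina these families act when ganglion cells send axons out through the optic nerve to the tectum and when neurites sort into the plexiform layers.

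The smarca4a probe set was lower in the mutant in every tissue, at 8.89 ± 0.20 against 11.15 ± 0.16 (SD, n = 3) in retina, 9.20 ± 0.28 against 10.84 ± 0.28 in RPE-attached retina and 7.87 ± 0.14 against 10.30 ± 0.14 in embryos. The RPE-attached groups stood apart in their control probe sets. Hybridization controls averaged 11.33 ± 0.12 in the mutant RPE-attached arrays, against group means of 9.66 to 9.97 (SD 0.09 to 0.57) in the other 5 groups. Single arrays of those groups reached 10.60. Poly-A controls averaged 5.78 ± 0.05 in wild-type and 4.70 ± 0.15 in mutant RPE-attached arrays, against group means of 4.78 to 5.11 elsewhere. The median SD per probe set was 0.175 in the mutant RPE-attached arrays (0.111 to 0.123 elsewhere). Pool size and these control signals differ between the RPE-attached genotypes in the same way as genotype does, and cannot be told apart from it there. In bare retina, 12 of 13 ganglion cell marker genes on the array fell in the mutant, with a mean marker level per array of 7.86 to 7.97 against 9.23 to 9.34. Of 17 amacrine and horizontal cell markers, 14 fell (7.79 to 7.81 against 9.26 to 9.31). Lens markers had a mean level of 7.09, 7.21 and 5.79 in the 3 mutant retina arrays, against 5.36 to 5.48 in wild type, and 3 of 6 rose. Of 17 photoreceptor markers 6 fell and 2 rose, and of 8 bipolar and Muller cell markers 4 fell and 0 rose. Of 23 retinal progenitor markers 4 fell and 5 rose. Among all named genes 9.50% were lower and 10.1% higher in mutant retina. The part of these cell types in the results below was not tested.

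In mutant retina 14 of the 27 adhesion genes fell, while most ligands and receptors did not pass the test. Of the 69 genes, 21 fell and 3 rose at an adjusted p below 0.05 (limma, Benjamini-Hochberg over 15502 probe sets), against 9.50% lower and 10.1% higher among all 8793 named genes. None of the 27 adhesion genes rose (limma; 13 were not called), and their median log2 difference was -0.42, against 4 of 22 ligands lower and, among 17 receptors, 3 lower and 2 higher. The median was -0.03 over all 69 genes and 0.04 over all named genes. All 24 called genes had mutant arrays that did not overlap the wild-type arrays. The share without overlap among all named genes was not counted, so this is not further support for the calls. The largest falls were those of lrrc4.1, lingo1b, cntn1b, pcdh10a, cdh18a and robo2, and the 3 risers were ephb2b, robo3 and lrrc42. With the replicate number as a block (embryo and retina arrays alone), 24 fell and 6 rose (background 15.8% and 17.7%); the added calls were cdh11, efnb2a and robo1 lower and plxnd1, efna3b and lrrc40 higher. When each array was left out in turn, 14 of the 21 falls and 1 of the 3 rises (ephb2b) kept their calls every time. Calls were lost for robo3 without 4 of the 6 arrays (adjusted p up to 0.119, without wild-type array 2), lrrc42 without 3 (0.0613, mutant array 3), cntn2 without 5 (0.129, mutant array 1), nrp1a without 5 (0.154, wild-type array 3), sema6ca without 5 (0.215, mutant array 2), pcdh18a without 4 (0.165, mutant array 3), lrrc4ca without 3 (0.0672, mutant array 1), pcdh1b without 2 (0.0833, wild-type array 1) and efnb3b without wild-type array 1 (0.0789).

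**Figure D1:**
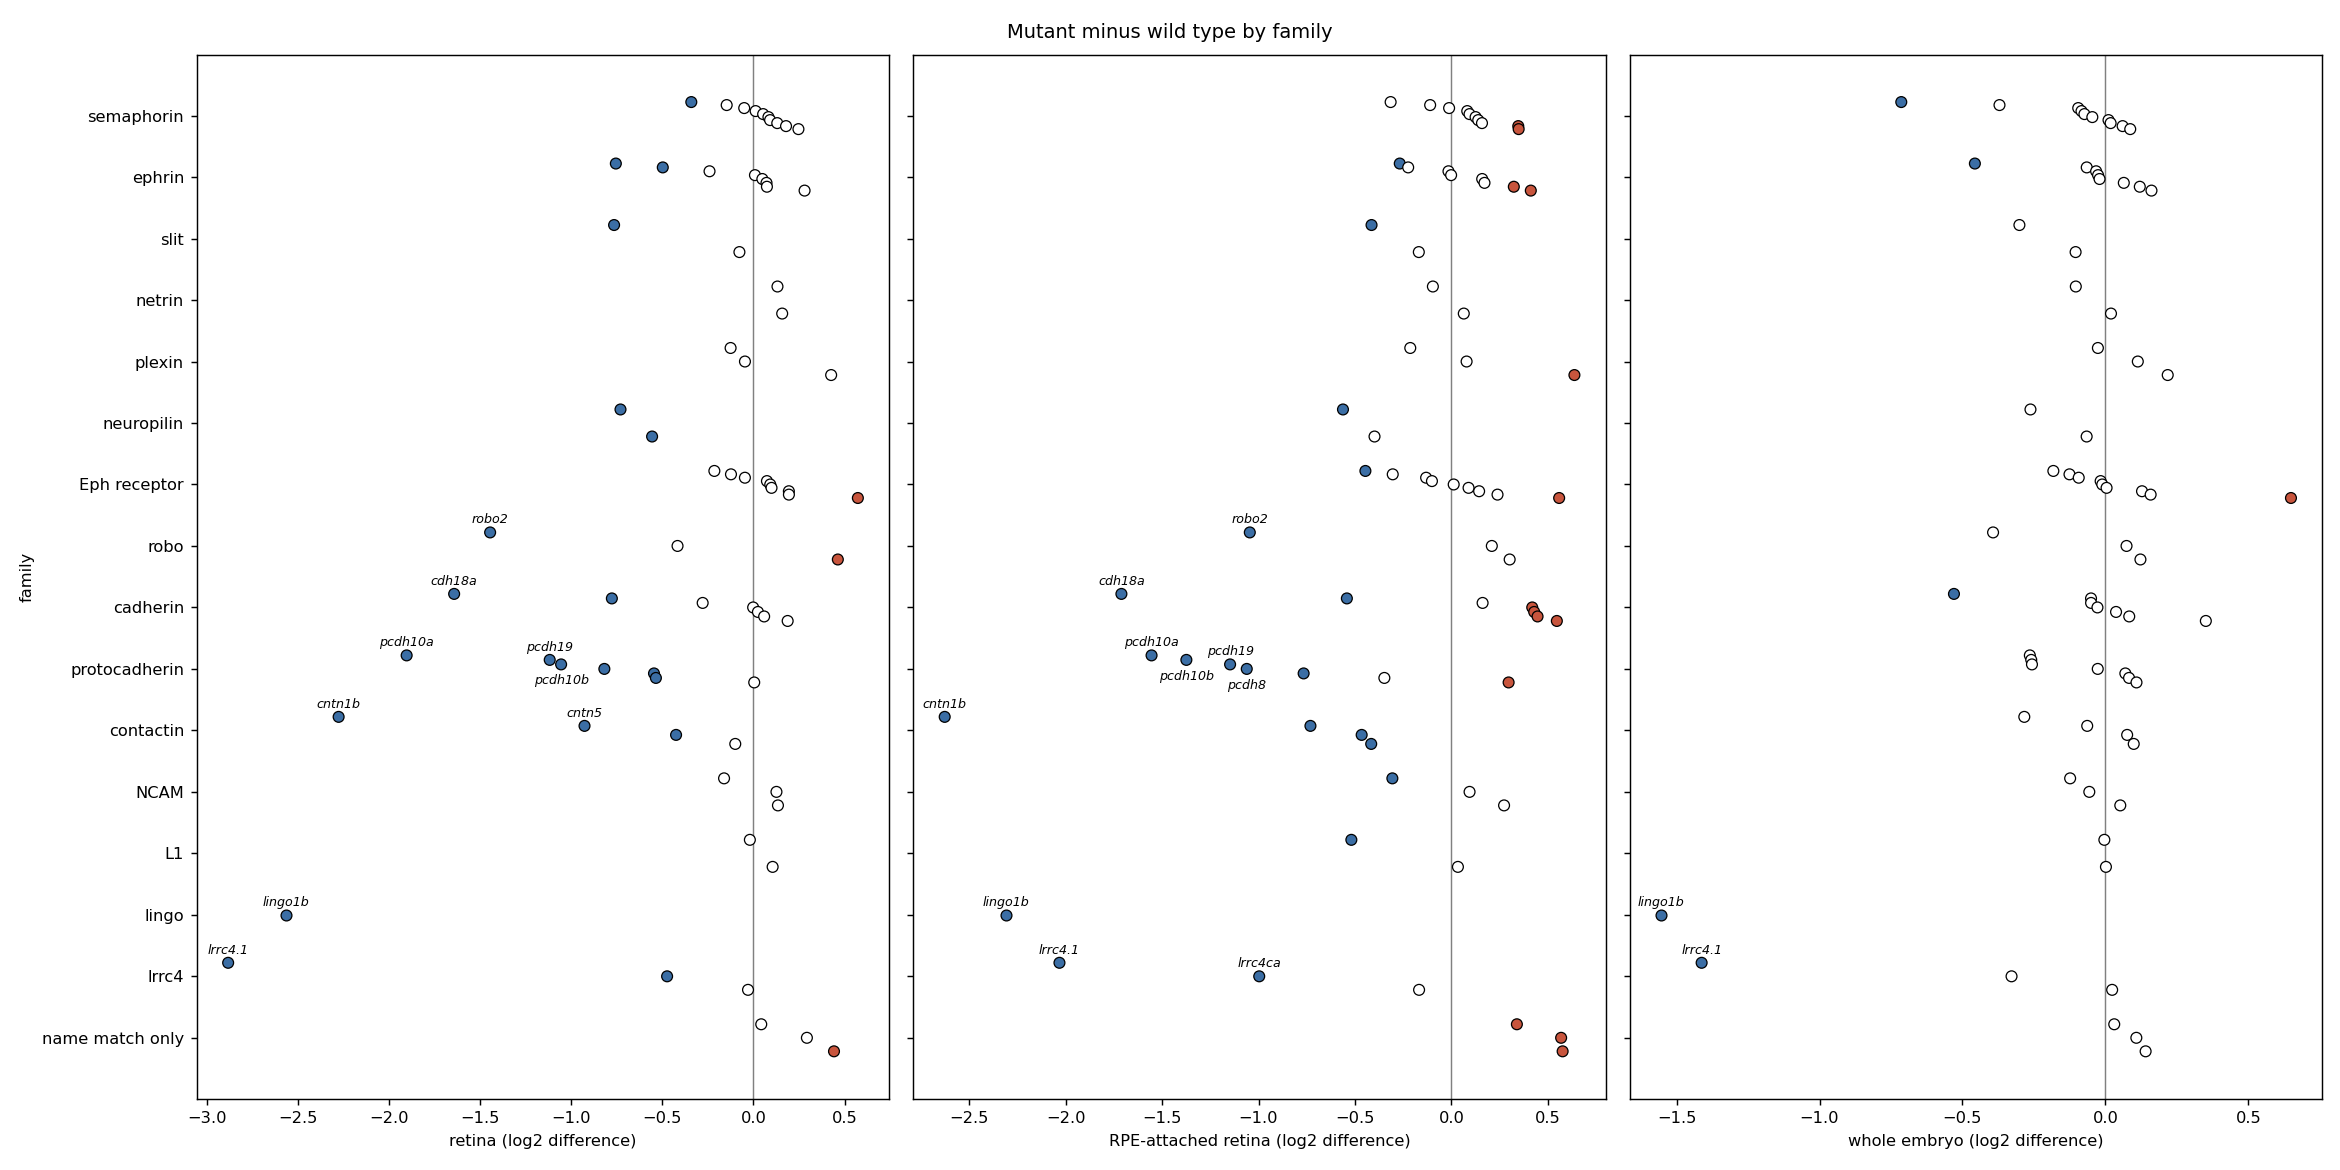
Log2 difference, mutant minus wild type, of the 69 genes by family in retina (left), RPE-attached retina (middle) and whole embryo (right). Each point is 1 gene, blue where called lower, red where called higher and white where not called; genes called beyond 0.9 are named, and lrrc4.1 lies farthest to the left in bare retina (-2.88) and cntn1b in RPE-attached retina (-2.63).

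In mutant RPE-attached retina, the same number of genes fell and more rose. Of the 69 genes 21 fell and 14 rose, against 21.3% lower and 28.2% higher among all named genes, so the rises were below the background share. The adhesion genes again made up most of the falls, with 16 of 27 lower and 5 higher, and ligands and receptors gave 2 lower and 4 higher of 22 and 3 lower and 2 higher of 17. The bare and RPE-attached retinas were separate pools, and 15 genes were lower in both, which is 15 of 21 in each: cntn1b, lingo1b, lrrc4.1, lrrc4ca, cdh18a, cdh4, pcdh10a, pcdh10b, pcdh19, pcdh1b, pcdh8, cntn2, cntn5, robo2 and nrp2b. The share of all named genes lower in both tissues was not counted, so this overlap describes the members alone. Across the 69 genes the 2 genotype differences correlated at r = 0.872, and 52 genes had the same sign. That is a description across genes, which are not independent replicates. Of the falls 17 of 21, and of the rises 7 of 14, kept their calls when each array was left out. The calls lost were those of cntn5 (adjusted p up to 0.3, without mutant array 1), efnb1 (0.19, mutant array 1), ncam1a (0.15, wild-type array 2) and slit3 (0.115, mutant array 3) among the falls, and cdh17 (0.203, mutant array 3), efna3b (0.189, wild-type array 3, and 0.148 with array weights), lrrc42 (0.114, mutant array 3), pcdh1a6 (0.101, wild-type array 2), efna5b (0.0757, mutant array 2, and 0.0748 with the compared groups alone), sema3e (0.0647, mutant array 3) and sema3ab (0.0612, mutant array 2) among the rises. Mesenchyme and cartilage markers rose with genotype in these samples, 8 of 18 (6.12 to 6.26 per array against 5.64 to 6.05), as did 5 of 8 RPE and melanin genes (8.11 to 8.25 against 7.58 to 7.89) and 2 of 5 endothelial genes (6.32 to 6.36 against 5.83 to 5.91), and their part in the rises was not tested. Of 23 retinal progenitor markers 10 rose and 5 fell (10.06 to 10.12 per array against 9.78 to 9.81). Of 13 ganglion cell markers 11 fell and 1 rose, and of 17 amacrine and horizontal cell markers 15 fell and 0 rose. Of 17 photoreceptor markers 8 fell and 2 rose, and of 8 bipolar and Muller cell markers 6 fell and 1 rose. The part of these cell types in the rises and falls was not tested.

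In whole mutant embryos few members were called. These arrays hold the retina among many other tissues, so a missing call does not show that every tissue was unchanged. Of the 69 genes 5 fell (lingo1b, lrrc4.1, sema3d, cdh18a and efnb3b) and 1 rose (epha2a), against 3.66% lower and 3.73% higher among all named genes. Among the 27 adhesion genes 3 fell, among 22 ligands 2 fell, and among 17 receptors 1 rose. With the replicate block, robo2, lrrc4ca, cntn5 and slit2 were also called lower, giving 9 lower and 1 higher (background 8.54% and 8.98%). The call of efnb3b was lost without 5 of the 6 arrays (adjusted p up to 0.217, without wild-type array 3). The 3 genes lower in all 3 tissues were cdh18a, lingo1b and lrrc4.1, and 25 of the 69 were called in none of the 3. The matching shares of all named genes were not counted.

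The genotype difference itself differed between retina and embryo for 12 genes. In this interaction test 11 genes had a lower mutant-minus-wild-type difference in retina than in embryo and 1, sema3d, a higher one, against 4.42% and 2.80% of all named genes. Of the 11, 8 were adhesion genes (cntn1b, pcdh10a, lrrc4.1, pcdh19, pcdh10b, cdh18a, lingo1b and cdh4), and the others were robo2, efnb2b and nrp2b. With the replicate block the counts were 19 and 2 (background 8.48% and 7.45%), adding cdh11, cntn2, cntn5, epha2a, pcdh18a, pcdh8, robo1, slit2 and, on the higher side, lrrc42. The calls of nrp2b and sema3d were lost without 8 and 5 of the 12 arrays (adjusted p up to 0.0975 without wild-type retina array 1 and up to 0.064 without wild-type embryo array 3). Both embryo groups were dim for nrp2b and both bare retina groups for sema3d, so a fall there could be missed. The embryo arrays include retina, and how much of each embryo value came from it was not measured.

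**Figure D2:**
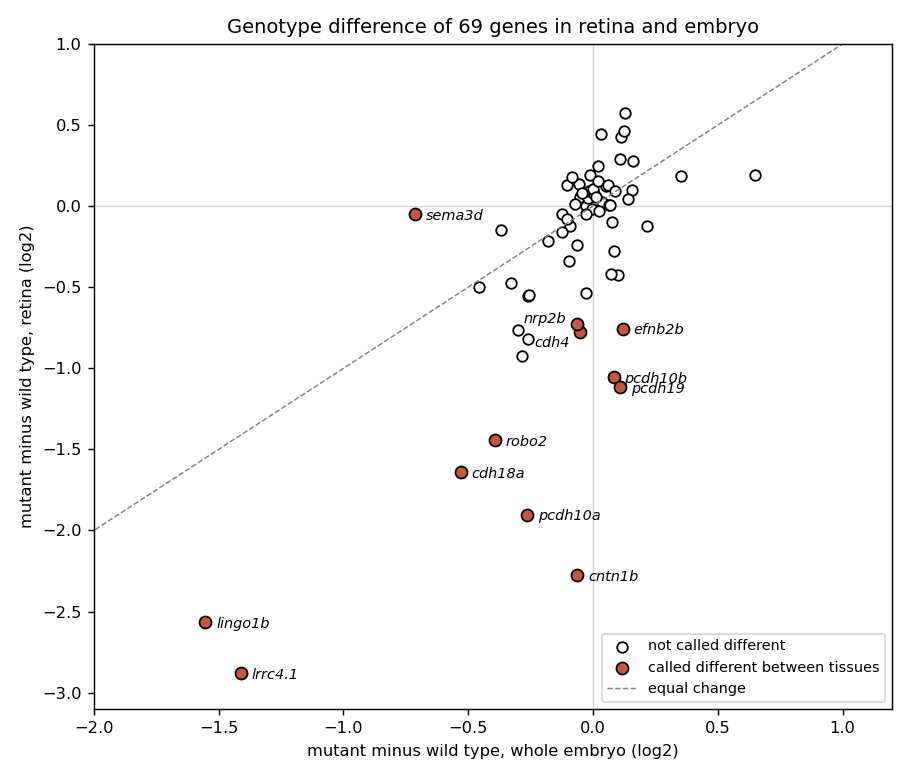
Log2 difference, mutant minus wild type, of the 69 genes in whole embryo (horizontal axis) and in bare retina (vertical axis). Red points are the 12 genes whose differences were called unequal in the interaction test, and the dashed line marks equal change. The gene cntn1b lies near 0 in the embryo and at -2.28 in the retina. The gene sema3d lies at -0.71 in the embryo and near 0 in the retina, where it was dim.

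Among the ligands, slit2, a secreted repellent for robo-bearing axons, had log2 levels of 6.88, 6.36 and 6.76 in wild-type and 5.99, 5.81 and 5.92 in mutant retina. The mutant arrays all lay below the wild-type arrays, a fall of 0.76 (SE 0.16, adjusted p = 0.00179, 1.70-fold). In RPE-attached retina the slit2 arrays overlapped, at 6.40, 6.68 and 6.50 against 6.18, 6.77 and 6.12, and in embryos the difference was -0.30 (adjusted p = 0.403, 0.0176 with the replicate block). Its relative slit3 differed by -0.08 in retina and was lower by 0.41 in RPE-attached retina (adjusted p = 0.0203). The slit3 call was lost with array weights (limma adjusted p = 0.0574).

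The transmembrane ligand efnb2b, an ephrin-B whose relatives are known to pattern the retina along its dorsal-ventral axis, fell in bare retina alone among the 3 tissues tested. Its levels were 7.64, 7.55 and 7.75 in wild-type and 6.87, 6.96 and 6.83 in mutant retina, a 1.69-fold fall (-0.75, SE 0.10, adjusted p = 8.17e-06). In RPE-attached retina the same gene read 7.58, 7.50 and 7.72 against 7.71, 7.72 and 7.84 (difference 0.16, adjusted p = 0.190), and in embryos 7.32, 7.10 and 7.27 against 7.45, 7.34 and 7.26 (0.12, adjusted p = 0.693). The bare-retina difference was lower than that in embryo by 0.87 (adjusted p = 2.70e-04) and lower than that in RPE-attached retina by 0.91 (2.08e-04). A second, dim efnb2b probe set differed by -0.25 in bare retina (adjusted p = 0.262). Its paralog efnb2a differed by -0.24 in retina (adjusted p = 0.240, 0.0317 with the block).

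Of the other ephrins, efnb3b fell in retina, from 7.42, 6.92 and 7.07 to 6.56, 6.66 and 6.69 (-0.50, adjusted p = 0.00948), and in embryos, from 7.08, 6.77 and 7.29 to 6.65, 6.59 and 6.54 (-0.46, adjusted p = 0.0392). In RPE-attached retina it read 7.24, 7.21 and 7.32 against 7.10, 7.30 and 7.36. The GPI-anchored ephrin-A genes gave few calls: efna2a and efna5a were called in no tissue, and efna3b and efna5b rose by 0.41 and 0.32 in RPE-attached retina (adjusted p = 0.0471 and 0.0143). The ephrin-B gene efnb1 fell there by 0.27 (adjusted p = 0.0358). Its second probe set, above the dim level, differed by 0.12 (limma adjusted p = 0.597). The efnb1 call was lost with the mean of all probe sets (-0.07, adjusted p = 0.64). It was also lost with the compared groups alone (0.123) and with array weights (0.064), so the direction of efnb1 there is uncertain.

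Of 10 semaphorins, sema6ca, a transmembrane member, was the 1 called lower in retina, from 7.30, 7.32 and 7.51 to 7.04, 6.84 and 7.22 (-0.34, adjusted p = 0.0393). That call was lost with array medians subtracted (limma adjusted p = 0.0609), the compared groups alone (0.0778) and repeated quantile normalization (0.101). The level of sema6ca differed by 0.08 in mutant RPE-attached retina, with no call, at 7.80, 7.79 and 7.84 against 7.68, 7.73 and 7.76 in wild type. The secreted sema3d, which is known in zebrafish to guide retinal axons, was lower in mutant embryos, at 6.30, 6.10 and 6.07 against 6.77, 6.81 and 7.03 (-0.71, SE 0.12, adjusted p = 7.48e-04, 1.64-fold). In both bare retina groups it was dim, at 4.78 to 5.10 in mutant and 4.97 to 5.06 in wild type. The secreted sema3ab and sema3e rose in RPE-attached retina by 0.35 each (adjusted p = 0.0138 and 0.0150), and sema3aa, sema3h, sema4e, sema5a, sema3bl and sema4ab were called in none of the 3 mutant comparisons.

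The netrins, secreted cues that attract axons through DCC-type receptors, gave no call by their brightest probe sets, with differences of -0.10 to 0.16 over both genes and the 3 tissues. For ntn1a the probe sets disagreed. A second probe set read 5.14, 5.06 and 4.78 in wild-type and 5.72, 5.88 and 5.22 in mutant retina, a rise of 0.62 (adjusted p = 0.00600), and rose by 0.77 in embryos (adjusted p = 0.00286), from 6.39, 6.45 and 6.66 to 7.27, 7.35 and 7.20. The remaining ntn1a probe set, which was dim, differed by -0.08 and 0.06. Which of these reports the ntn1a transcript was not settled by the files, and the gene's direction is uncertain.

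**Figure D3:**
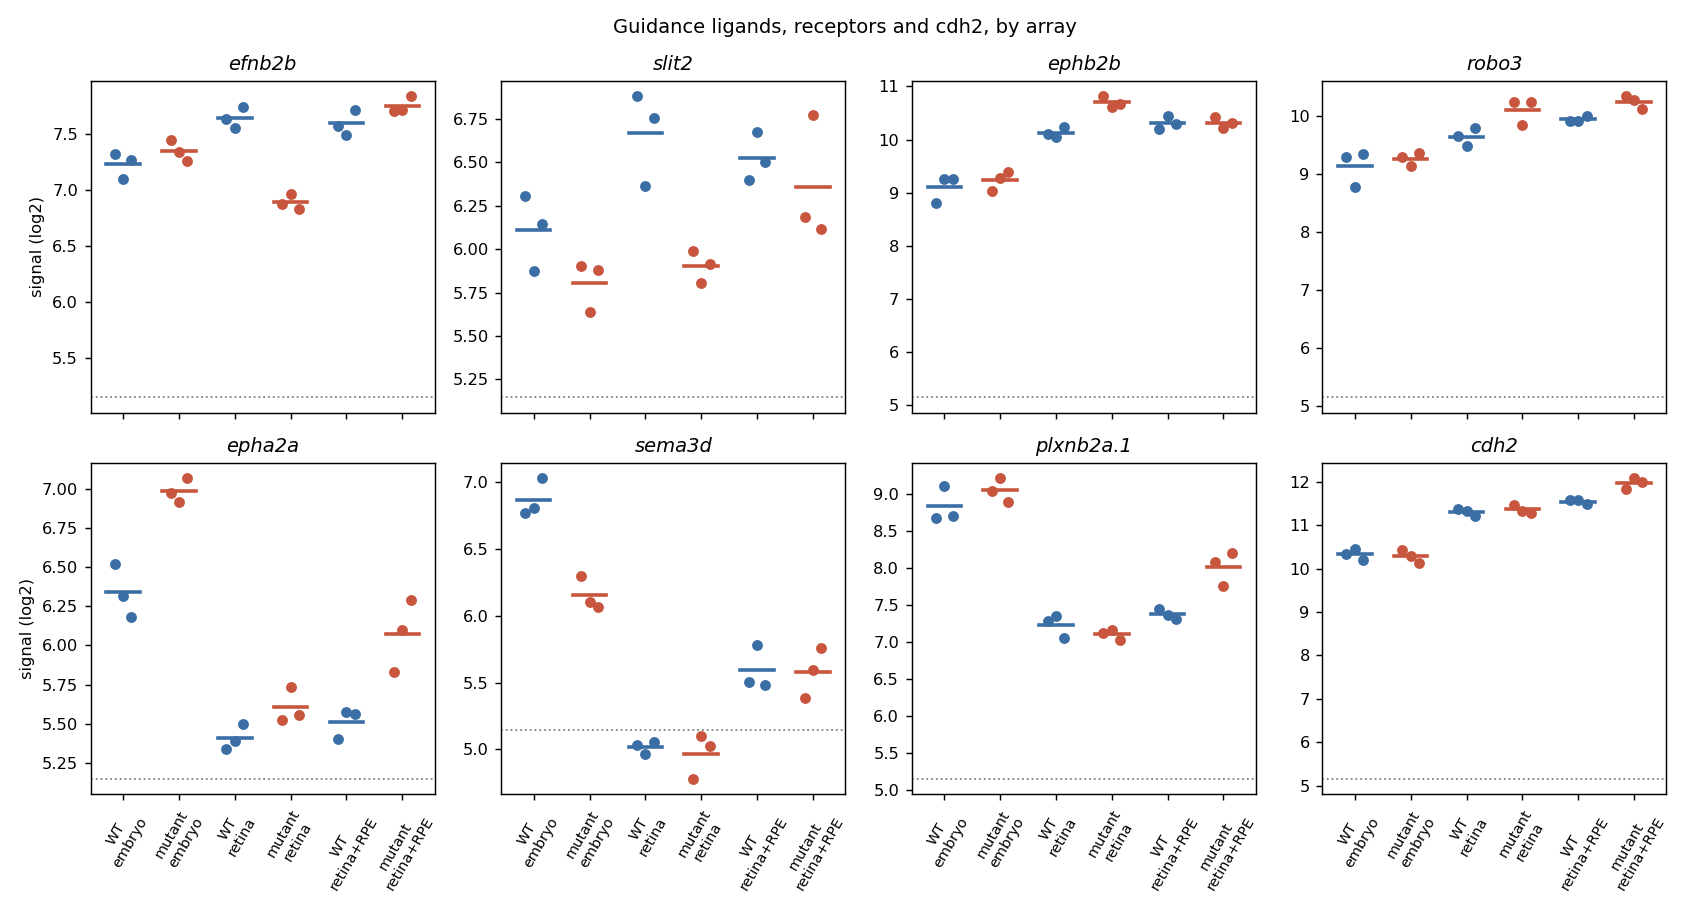
Log2 signal of 6 guidance ligands and receptors whose tissues or paralogs differ, of plxnb2a.1 and of cdh2 on each array (points; blue wild type, red mutant), with the mean of 3 arrays (bars) and the dim level of 5.15 (dotted). The 3 mutant bare-retina arrays of efnb2b lie at 6.83 to 6.96, below every other group, and the mutant embryo arrays of epha2a lie at 6.92 to 7.07, above every other group.

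Among the receptors, robo2 fell most. In zebrafish robo2 is the slit receptor that retinal ganglion cell axons need for correct pathfinding. Its levels were 7.97, 8.32 and 8.24 in wild-type and 6.57, 6.84 and 6.78 in mutant retina, a 2.72-fold fall (-1.44, SE 0.12, adjusted p = 1.63e-08). In RPE-attached retina it went from 8.25, 8.01 and 8.08 to 7.26, 6.94 and 7.01, a 2.06-fold fall (-1.05, adjusted p = 7.45e-07). In embryos the arrays also did not overlap (7.74, 7.80 and 7.90 against 7.38, 7.54 and 7.34), but the difference of -0.39 missed the threshold (adjusted p = 0.0505, 0.00441 with the replicate block). The retinal difference was lower than the embryonic one by 1.05 (SE 0.17, adjusted p = 2.74e-04).

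The 3 robo paralogs did not move together. In the same retinas robo3, a divergent family member, rose from 9.65, 9.48 and 9.79 to 10.23, 9.83 and 10.24 (0.46, SE 0.14, adjusted p = 0.0255). The level of robo1 was 6.29, 6.59 and 6.17 in wild-type and 5.88, 6.18 and 5.75 in mutant retina, overlapping between 6.17 and 6.18 (-0.42, adjusted p = 0.0772, 0.00162 with the replicate block). In RPE-attached retina robo1 and robo3 differed by 0.21 and 0.30, and neither passed the test.

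The neuropilins are the ligand-binding receptors for secreted semaphorins. Both that were measured, nrp2b and nrp1a, were lower in mutant retina, whereas nrp1b and nrp2a were not among the members measured. The levels of nrp2b were 5.32, 5.24 and 4.96 in wild-type and 4.41, 4.51 and 4.42 in mutant retina (-0.73, SE 0.13, adjusted p = 3.19e-04), and those of nrp1a were 5.22, 4.81 and 5.46 against 4.64, 4.64 and 4.53 (-0.56, SE 0.17, adjusted p = 0.0240). The mutant values of both are dim, so no fold is given. In RPE-attached retina nrp2b fell by 0.56 (adjusted p = 0.00156), and nrp1a differed by -0.40 without passing the test. Neither was called in embryos, where both genes were dim in both genotypes.

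Of 9 Eph receptors 1 changed in bare retina. The receptor ephb2b rose from 10.10, 10.05 and 10.23 to 10.82, 10.62 and 10.67, a 1.49-fold rise (0.57, SE 0.13, adjusted p = 0.00254). In RPE-attached retina its arrays overlapped (10.19, 10.44 and 10.29 against 10.43, 10.23 and 10.30), and the genotype difference there was lower than in bare retina by 0.56 (adjusted p = 0.0334). That last call was lost without 8 of 12 arrays, with an adjusted p up to 0.0863 without wild-type RPE-attached array 2.

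The receptor epha2a was called in the other tissues. It rose in embryos from 6.52, 6.31 and 6.18 to 6.97, 6.92 and 7.07, a 1.57-fold rise (0.65, SE 0.12, adjusted p = 0.00137). In RPE-attached retina it rose from 5.40, 5.57 and 5.57 to 5.83, 6.10 and 6.29 (0.56, adjusted p = 6.91e-04). In bare retina it read 5.34, 5.39 and 5.50 against 5.52, 5.74 and 5.56, with all mutant arrays above the wild-type ones but no call. The receptor ephb4a fell in RPE-attached retina by 0.45 (adjusted p = 0.00618) with overlapping arrays, and epha4a, epha4b, epha4l, epha6, ephb3a and ephb4b were called in none of the 3 tissues.

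The plexins are the signaling receptors for semaphorins. The level of plxnb2a.1 was 7.28, 7.35 and 7.06 in wild-type and 7.13, 7.16 and 7.02 in mutant bare retina, with no call, but rose in RPE-attached retina from 7.45, 7.37 and 7.32 to 8.08, 7.76 and 8.20 (0.64, SE 0.13, adjusted p = 5.90e-04, 1.56-fold). The genotype difference was higher in RPE-attached than in bare retina by 0.76 (adjusted p = 0.00763). The level of plxnd1, known from vessel guidance, was 8.22, 7.94 and 7.85 in wild-type and 8.49, 8.53 and 8.27 in mutant retina, without overlap (0.43, adjusted p = 0.0686, 0.00233 with the block). The tandem paralog plxnb2a.3 was called in no tissue.

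Among the adhesion genes the largest fall was that of lrrc4.1. In mammals LRRC4 is a postsynaptic adhesion protein that binds netrin-G. Wild-type retina read 6.99, 7.57 and 6.92 and mutant retina 4.27, 4.35 and 4.22, which is dim (-2.88, SE 0.16, adjusted p = 1.03e-10). RPE-attached retina went from 6.60, 6.09 and 6.15 to 4.16, 4.19 and 4.39 (-2.03, adjusted p = 8.12e-09), and embryos from 6.93, 6.79 and 6.61 to 5.20, 5.55 and 5.34, a 2.66-fold fall (-1.41, adjusted p = 7.72e-06). The fall in retina exceeded that in embryo by 1.47 on the log2 scale (adjusted p = 2.07e-04). The mutant level was dim in both retinal tissues (means 4.28 and 4.25), so the sizes of these falls follow the wild-type levels (7.16 and 6.28). Its tandem paralog lrrc4.2 differed by -0.03, -0.17 and 0.02 in the 3 tissues, with no call. Another family member, lrrc4ca, fell in retina by 0.47 (adjusted p = 0.0140) and in RPE-attached retina from 5.61, 5.65 and 5.58 to 4.85, 4.35 and 4.65 (-0.996, adjusted p = 5.00e-06).

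The second large fall was that of lingo1b, whose mammalian relative is part of the Nogo receptor complex that restrains axon growth. Retina read 6.89, 6.95 and 6.73 in wild type and 4.36, 4.35 and 4.16 in the mutant, again dim (-2.57, SE 0.11, adjusted p = 4.28e-12). RPE-attached retina read 7.03, 6.94 and 6.97 against 4.77, 4.44 and 4.80 (-2.31, adjusted p = 2.19e-11). Embryos read 7.01, 7.25 and 7.37 against 5.70, 5.64 and 5.63, a 2.94-fold fall (-1.55, adjusted p = 2.97e-08). Both lrrc4.1 and lingo1b fell in all 3 tissues with no overlap between genotypes, and both fell farther in retina than in embryo.

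**Figure D4:**
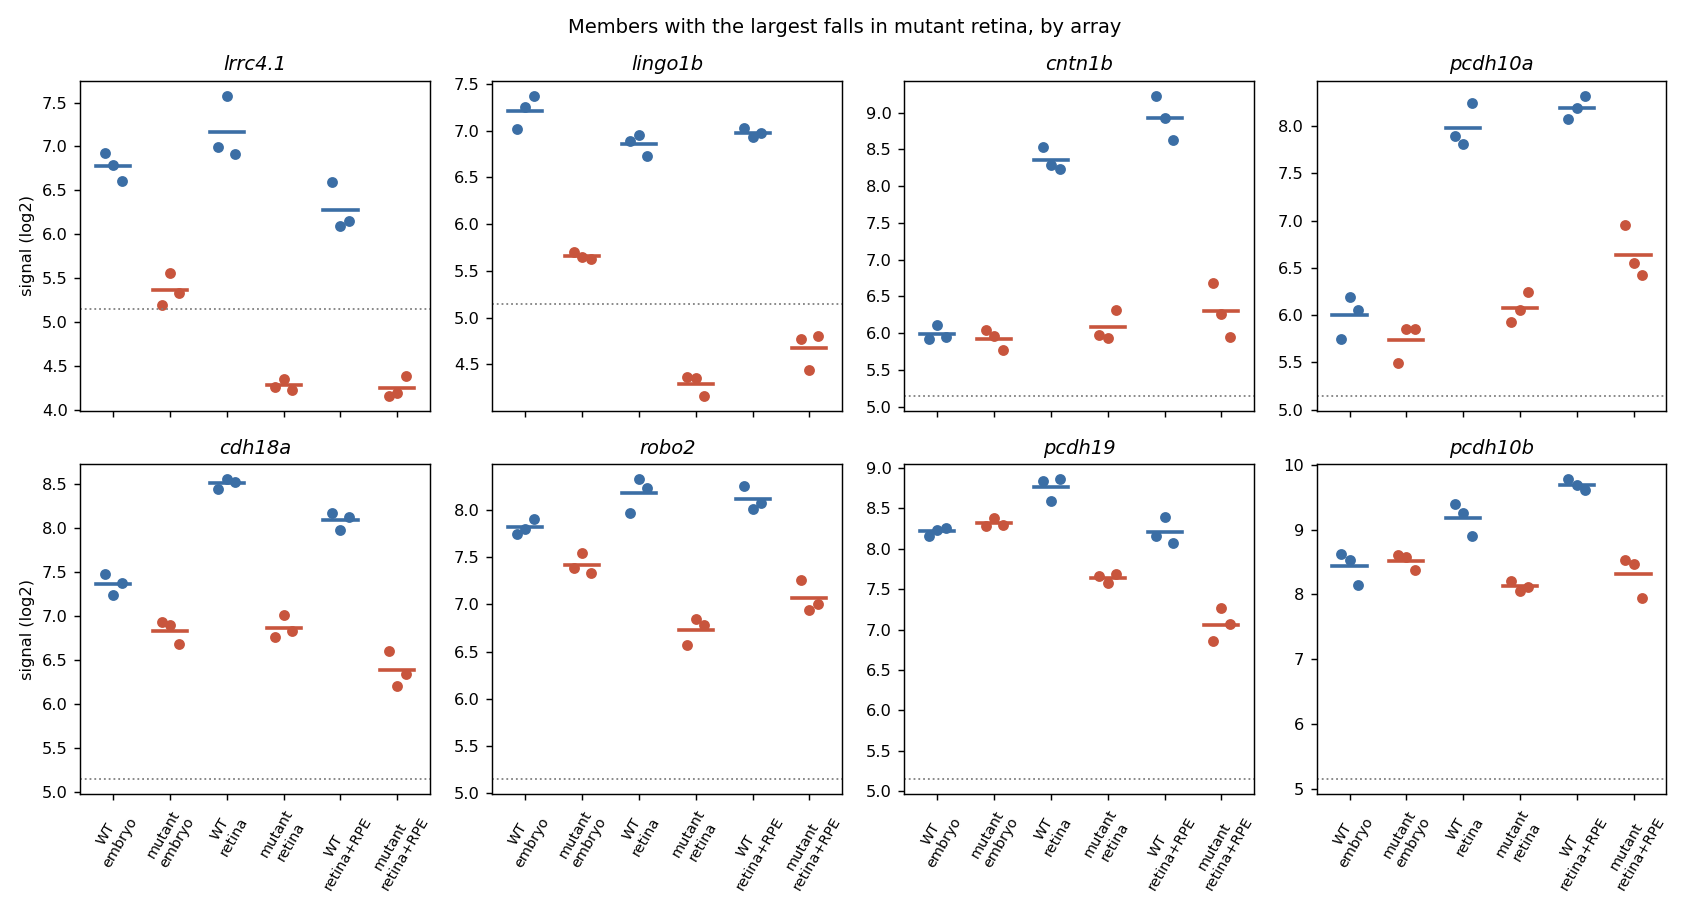
Log2 signal of the 8 members with the largest falls in mutant bare retina on each array (points; blue wild type, red mutant), with the mean of 3 arrays (bars) and the dim level of 5.15 (dotted). The mutant retina arrays lie below the wild-type retina arrays for all 8 genes; in embryos the genotypes separate for lrrc4.1, lingo1b, cdh18a and robo2 and overlap for cntn1b, pcdh10a and pcdh10b, while the mutant arrays of pcdh19 lie above the wild-type ones (8.29 to 8.38 against 8.15 to 8.26).

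The contactins are GPI-anchored immunoglobulin proteins of axons. The level of cntn1b was 8.54, 8.29 and 8.24 in wild-type and 5.98, 5.94 and 6.32 in mutant retina, a 4.84-fold fall (-2.28, SE 0.17, adjusted p = 4.35e-09). RPE-attached retina went from 9.23, 8.92 and 8.63 to 6.69, 6.26 and 5.95, a 6.18-fold fall (-2.63, adjusted p = 5.01e-10). In embryos it read 5.92, 6.11 and 5.94 against 6.05, 5.96 and 5.77, which overlap, and the retinal difference was lower than the embryonic one by 2.21 (SE 0.24, adjusted p = 4.09e-06). In wild type cntn1b was 5.15-fold higher in retina than in embryo, and mutant retina, at a mean of 6.08, was close to both embryo groups.

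The other contactins fell less. The level of cntn5 was 5.73, 5.68 and 5.69 in wild-type and 4.79, 4.83 and 4.72 in mutant retina (-0.93, adjusted p = 6.54e-04), and cntn5 fell by 0.47 in RPE-attached retina with overlapping arrays (adjusted p = 0.0377). The cntn2 gene, whose product TAG-1 marks growing axons, was dim in every group and fell by 0.42 and 0.73 in the 2 retinal tissues (adjusted p = 0.0326 and 2.04e-04). The paralog cntn1a did not pass the test in bare retina (-0.10) and fell by 0.42 in RPE-attached retina (adjusted p = 0.00569). So 3 of 4 contactins were lower in bare and 4 of 4 in RPE-attached mutant retina, and 0 of 4 in embryos (cntn5 was called lower there with the replicate block, -0.28, adjusted p = 0.0322). Among all named genes 9.50%, 21.3% and 3.66% were lower in these tissues. The RPE-attached call of cntn5 was lost with the compared groups alone (limma adjusted p = 0.115) and without 5 of 6 arrays. The bare-retina call of cntn2 was also lost without 5 of 6 arrays.

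Of 7 protocadherins 6 fell in mutant retina, with a family median of -0.82, 5 fell and 1 rose in RPE-attached retina, and 0 were called in embryos. Among all named genes 9.50% were lower in retina. In RPE-attached retina 21.3% were lower and 28.2% higher, and in embryos 3.66% and 3.73%. The level of pcdh10a, a delta-type protocadherin of neural circuits, was 7.89, 7.81 and 8.24 in wild-type and 5.93, 6.06 and 6.25 in mutant retina, a 3.74-fold fall (-1.90, SE 0.15, adjusted p = 1.61e-08). In RPE-attached retina it went from 8.07, 8.19 and 8.32 to 6.95, 6.55 and 6.42 (-1.55, adjusted p = 1.53e-07). Embryos read 5.75, 6.20 and 6.05 against 5.50, 5.86 and 5.85, with overlap. Of its other 2 probe sets, both dim or nearly so, 1 also fell in retina (-0.46, adjusted p = 0.0164) and 1 did not move (0.03).

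The paralog pcdh10b fell in retina from 9.40, 9.25 and 8.90 to 8.20, 8.06 and 8.12, a 2.08-fold fall (-1.06, SE 0.15, adjusted p = 3.53e-05). RPE-attached retina went from 9.78, 9.68 and 9.61 to 8.52, 8.47 and 7.95, a 2.59-fold fall. The embryo arrays overlapped, with 8.62, 8.54 and 8.15 against 8.60, 8.57 and 8.37. The pcdh10b probe set was above the dim level on all 18 arrays.

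The X-linked human epilepsy gene PCDH19 has the zebrafish ortholog pcdh19, which is known to organize columns of cells in the fish visual system. It fell in retina from 8.83, 8.59 and 8.86 to 7.66, 7.58 and 7.69, a 2.17-fold fall (-1.12, SE 0.11, adjusted p = 3.04e-07), and in RPE-attached retina from 8.16, 8.39 and 8.07 to 6.85, 7.26 and 7.07 (2.22-fold, adjusted p = 1.33e-07). In embryos the mutant arrays lay above the wild-type arrays, 8.29, 8.38 and 8.30 against 8.15, 8.23 and 8.26, with no call. The retinal and embryonic differences were unequal by 1.23 (SE 0.16, adjusted p = 3.70e-05).

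The remaining protocadherins followed with smaller falls. The level of pcdh8 was 7.49, 6.90 and 7.22 in wild-type and 6.39, 6.43 and 6.34 in mutant retina (-0.82, adjusted p = 7.23e-04), and it fell by 1.06 in RPE-attached retina (adjusted p = 2.06e-05). That of pcdh1b fell by 0.55 and 0.77 in the same tissues (adjusted p = 0.0126 and 3.34e-04). For pcdh18a the brightest probe set fell in retina by 0.54 (adjusted p = 0.0315), but its second probe set differed by 0.12 (adjusted p = 0.704), so its direction is uncertain. The pcdh18a call was lost with the mean of its probe sets (-0.21, limma adjusted p = 0.268) and with repeated quantile normalization (0.0605). The dim pcdh1a6 was the member that rose in RPE-attached retina, by 0.30 (adjusted p = 0.0178). That call was lost with the compared groups alone (limma adjusted p = 0.0698) and with repeated quantile normalization (0.119).

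A further pair of probe sets, not counted among the 69 genes, match the clustered protocadherins and each carry several gene symbols. The probe set shared by 11 pcdh2 genes read 9.84, 10.14 and 9.71 in wild-type and 8.69, 9.31 and 8.74 in mutant retina (-0.98, adjusted p = 4.54e-04), and 9.88, 9.85 and 10.09 against 8.10, 7.79 and 7.50 in RPE-attached retina (-2.14, adjusted p = 1.86e-08). The probe set shared by 14 pcdh1 genes fell in retina by 0.46 (adjusted p = 0.0353) and differed by 0.03 in RPE-attached retina. Neither was called in embryos, and which genes of each cluster were measured cannot be told apart on this array.

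The 7 cadherins split. The type II cadherin cdh18a fell in every tissue: from 8.45, 8.56 and 8.53 to 6.76, 7.01 and 6.84 in retina, a 3.12-fold fall (-1.64, SE 0.11, adjusted p = 1.59e-09), from 8.17, 7.98 and 8.13 to 6.60, 6.21 and 6.34 in RPE-attached retina (3.27-fold, adjusted p = 7.55e-10), and from 7.48, 7.24 and 7.38 to 6.93, 6.90 and 6.69 in embryos (1.44-fold, adjusted p = 0.00514). The retinal difference was lower than the embryonic one by 1.11 (adjusted p = 1.00e-04).

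The gene cdh4, encoding R-cadherin, which is known in zebrafish to promote the outgrowth of retinal axons, fell in retina from 8.35, 8.27 and 8.09 to 7.44, 7.48 and 7.47, a 1.71-fold fall (-0.78, SE 0.11, adjusted p = 3.16e-05). It fell in RPE-attached retina by 0.54 (adjusted p = 5.96e-04), and in embryos it read 7.76, 7.70 and 7.36 against 7.64, 7.57 and 7.44.

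The most widely used neural cadherin, N-cadherin or cdh2, which zebrafish retinas need for lamination, was not called in bare retina. Its levels were 11.38, 11.33 and 11.22 in wild-type and 11.48, 11.33 and 11.30 in mutant retina (difference 0.06, adjusted p = 0.814). In RPE-attached retina cdh2 rose from 11.59, 11.58 and 11.48 to between 11.84 and 12.10 (0.43, SE 0.10, adjusted p = 0.00235). Its dimmer second probe set differed by -0.49 and 0.43 in these tissues without a call. The mesenchyme-rich cdh11 differed by -0.28 in retina without overlap (8.30, 8.42 and 8.28 against 8.02, 8.12 and 8.01, adjusted p = 0.137, 0.00974 with the block), and its second probe set differed by -0.02. The genes cdh13, cdh15 and cdh17, all dim in these samples, rose by 0.45, 0.42 and 0.55 in RPE-attached retina (adjusted p = 0.00503, 7.39e-04 and 0.0250). The call of cdh17 was lost with the compared groups alone (adjusted p = 0.0635), and cdh13 and cdh15 were not tested where dim probe sets were left out.

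Of the NCAM and L1 genes, none of ncam1a, ncam1b, ncam2, l1cama or l1camb was called in bare retina or embryo, with limma differences between -0.16 and 0.13 (0 calls; ncam1a read 5.76 to 5.99 in wild-type and 5.85 to 6.29 in mutant retina). In RPE-attached retina ncam1a fell by 0.31 (adjusted p = 0.0355) and l1camb from 5.33, 5.60 and 5.52 to 4.93, 5.20 and 4.76 (-0.52, adjusted p = 0.00134). The ncam1a call was lost with array weights (limma adjusted p = 0.0705) and with the compared groups alone (0.0732). Of these 5 genes, ncam1b, ncam2 and l1cama were dim in every group.

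The 3 name matches gave rises and no fall. The unc50 gene encodes a Golgi protein unrelated to the unc5 netrin receptors. It read 9.19, 8.63 and 9.15 against 8.99, 8.83 and 9.28 in retina and rose by 0.57 in RPE-attached retina (adjusted p = 0.00463). The leucine-rich repeat genes lrrc42 and lrrc40 rose there by 0.34 and 0.58 (adjusted p = 0.0304 and 7.46e-04), and lrrc42 rose in bare retina from 6.96, 6.98 and 6.88 to 7.43, 7.26 and 7.45 (0.44, adjusted p = 0.0147). The RPE-attached call of lrrc42 was lost with array weights (limma adjusted p = 0.0578) and with the compared groups alone (0.0871).

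In wild type, the retina and the whole embryo differed in most members, as in most genes on the array. Of the 69 genes 32 were higher and 15 lower in retina, against 46.2% and 22.4% of all named genes, and the median was 0.25 over the 69 genes and 0.26 over all named genes. Subtracting each array's median moved all log2 differences up by 0.11, giving 38 higher and 13 lower. The matching shares of all named genes under that setting were not counted. By role, 17 of 27 adhesion genes were higher and 5 lower, 9 of 22 ligands were higher and 3 lower, and 4 of 17 receptors were higher and 7 lower. With the replicate block, efna3b, epha6, l1cama and plxnb2a.3 were also called higher, and efna5a, lrrc4ca, pcdh1b and slit3 lower, giving 36 and 19 (background 55.4% and 25.0%).

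The genes most raised in wild-type retina over embryo were cntn1b (2.36, 5.15-fold, adjusted p = 2.46e-10), pcdh10a (1.98, 3.95-fold), pcdh8 (1.86, 3.63-fold), sema6ca (1.5, 2.82-fold), cdh18a (1.14, 2.21-fold), lrrc42 (1.13), ephb2b (1.02, 2.03-fold) and cdh2 (0.98, 1.97-fold). Of these, pcdh8 went from 5.48, 5.03 and 5.52 in embryos to 7.49, 6.90 and 7.22 in retina, and sema6ca from 5.94, 5.96 and 5.73 to 7.30, 7.32 and 7.51. All 3 NCAM genes, 3 of 4 contactins and 5 of 7 protocadherins were higher in retina, among them several dim genes, against 46.2% of all named genes. The calls of cntn1a, efna5b, lrrc4.1, ncam1b, ncam2, robo2 and sema3aa were lost when some array was left out. Those of ncam1b, ncam2 and sema3aa were lost without 5 of 6 arrays, and the highest adjusted p was that of lrrc4.1 (0.301 without wild-type retina array 2).

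Of the 15 genes lower in wild-type retina than in embryo, 8 were cdh11 (-2.37, 5.18-fold, adjusted p = 1.25e-12), robo1 (-2.10, 4.30-fold), sema3d (-1.85), plxnb2a.1 (-1.60, 3.04-fold), sema4e (-1.43), sema5a (-1.42), pcdh18a (-1.34, with its second probe set at 0.34) and cdh17 (-2.37, dim in retina). The cdh11 arrays were 10.81, 10.78 and 10.52 in embryos and 8.30, 8.42 and 8.28 in retina, and those of robo1 were 8.63, 8.54 and 8.20 against 6.29, 6.59 and 6.17. Of the Eph receptors, epha4a, epha2a, epha4b and ephb4b were lower in retina by 1.26, 0.93, 0.77 and 0.56, and the plexin plxnd1 by 0.61. Over the same tissues lingo1b was lower in retina by 0.35 (adjusted p = 0.0120, lost without wild-type embryo array 3 at 0.0693 or wild-type retina array 3), and cntn5 by 0.42, a call lost without 5 of 6 arrays (adjusted p up to 0.186, without wild-type embryo array 2). Muscle, epidermis and mesenchyme markers, which whole embryos hold, were near the dim level in retina (5.57 to 5.63, 5.03 to 5.09 and 5.16 to 5.26 per array) and at 11.84 to 12.11, 9.55 to 9.89 and 8.84 to 8.91 in embryos.

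**Figure D5:**
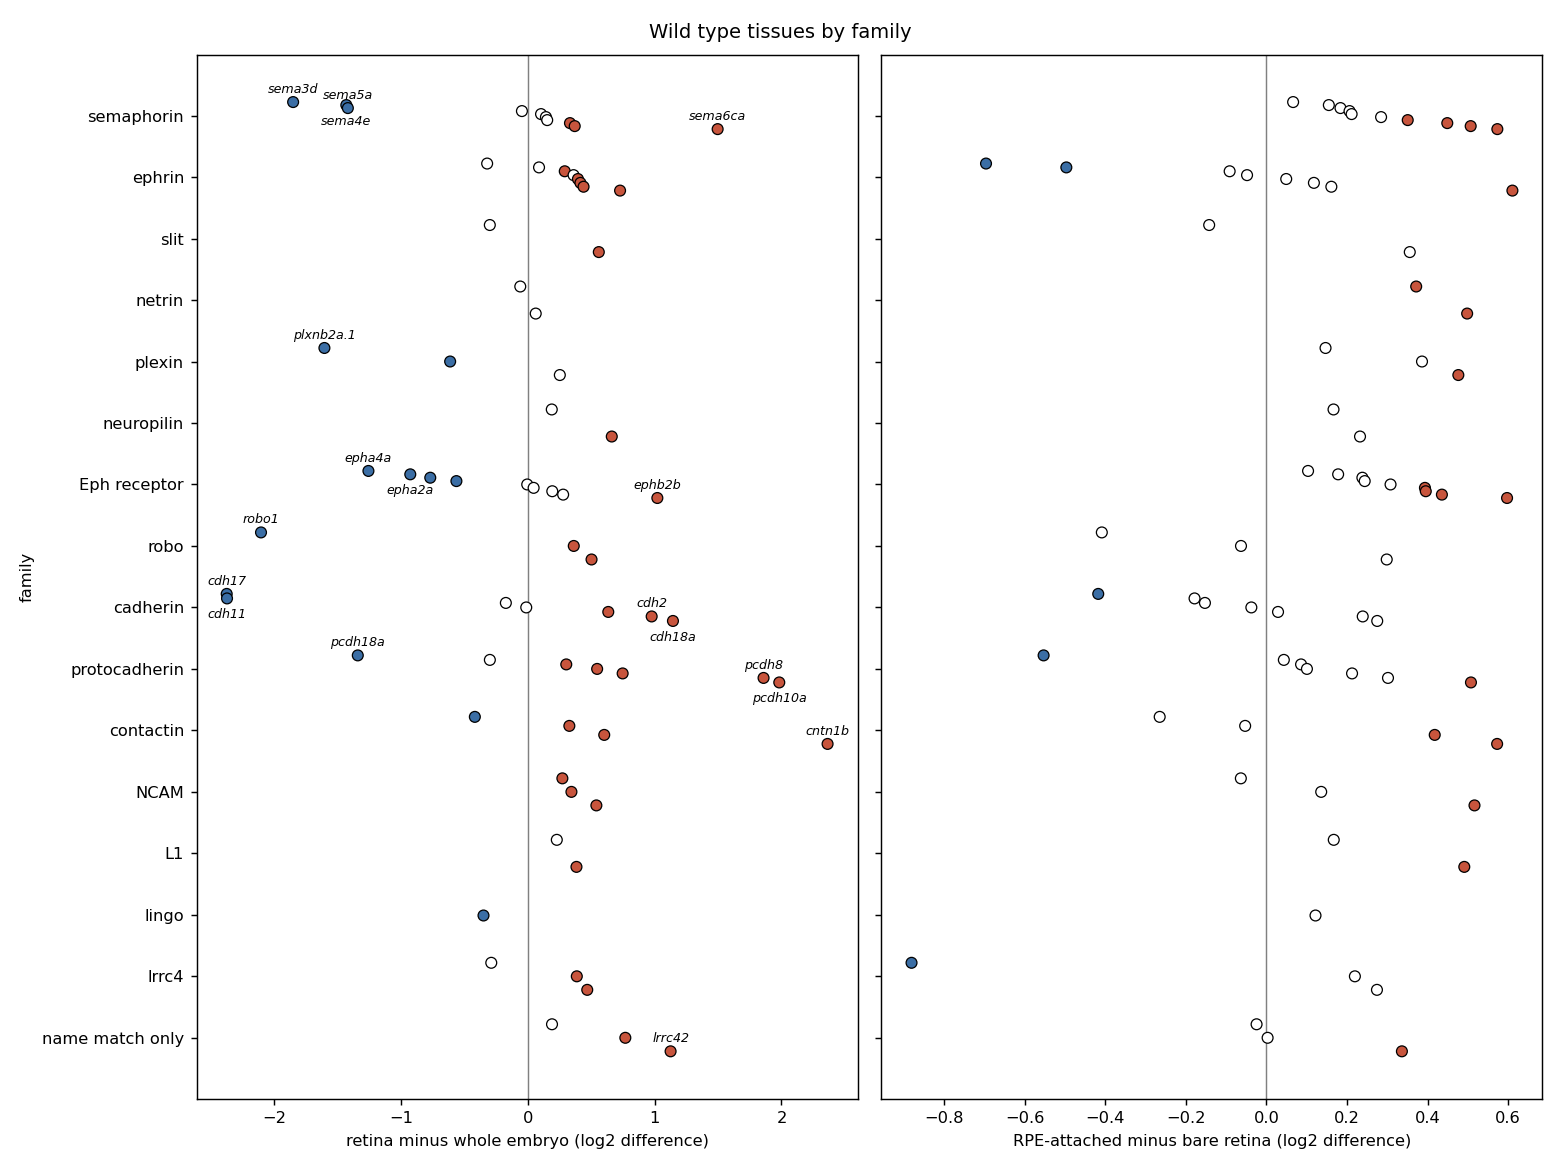
Log2 difference of the 69 genes by family between wild-type retina and embryo (left) and between wild-type RPE-attached and bare retina (right). Each point is 1 gene, red where called higher in the first-named tissue, blue where called lower and white where not called; genes called beyond 0.9 are named, with cntn1b at 2.36 and cdh11 at -2.37 at the ends of the left panel.

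Of the 21 genes lower in mutant retina, 14 were higher and 3 lower in wild-type retina than in embryo. Among all named genes 46.2% were higher and 22.4% lower in wild-type retina. The shares among all named genes lower in mutant retina were not counted. The 2 comparisons share the wild-type retina arrays, so their values are given side by side and not as independent evidence. For cntn1b, pcdh10a and cdh18a the mutant minus wild-type retinal difference was -2.28, -1.90 and -1.64, and the wild-type retina minus embryo difference was 2.36, 1.98 and 1.14. For lingo1b the values were -2.57 and -0.35, for robo2 -1.44 and 0.36, and for sema6ca -0.34 and 1.5.

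Between wild-type RPE-attached and bare retinas, more members were called higher with the RPE than lower, but many of these calls depended on the processing. Of the 69 genes 18 were higher and 5 lower than in bare retina, against 15.4% and 15.5% of all named genes. Subtracting array medians gave 12 higher and 6 lower, a share of 66.7% higher among the called genes against 78.3%, so the split depends on scaling. The shares of all named genes under that setting were not counted. Those most raised were efnb1 (6.89, 6.96 and 7.03 against 6.36, 6.37 and 6.32, difference 0.61, adjusted p = 2.19e-04), ephb4b (0.60), sema3d (0.57), cntn1b (0.57), ncam1a (0.52), pcdh10b (0.51), sema3aa (0.51) and ntn1a (0.50). Both netrins, 4 of 10 semaphorins and 4 of 9 Eph receptors were called higher. Several of these calls, among them those of both netrins, were lost under some setting, as given below. The falls were those of lrrc4.1 (-0.88, adjusted p = 4.62e-04), efna5a (-0.70), pcdh19 (-0.55), efna3b (-0.50) and cdh18a (-0.42), but the other 2 efna5a probe sets differed by 0.29 and 0.05. The other 2 ntn1a probe sets differed by 0.19 and 0.06 (adjusted p = 0.373 and 0.729). For efnb1 a second probe set, above the dim level, differed by 0.14 (limma adjusted p = 0.581), so its rise rests on 1 probe set. With the mean of all probe sets the calls of ntn1a (adjusted p = 0.0508) and efna5a (0.371) were lost, and with repeated quantile normalization those of sema3aa (0.0516) and cdh18a (0.0598). Of the 18 higher calls, 9 were lost under some setting other than leaving out an array. They were those of cntn1a, epha4l, ephb4a, lrrc40, ntn1a, ntn1b, sema3aa, sema3h and sema6ca. With quantile normalization the limma adjusted p was 0.0675 for ephb4a and 0.158 for ntn1b. Of the 18, 7 kept their calls under every setting at 0.05 and without each array. Without wild-type RPE-attached array 3 the rises numbered 11, with the share of all named genes not counted. The calls of cntn1a, cntn1b, epha4l, ephb4a, lrrc40, ntn1b, pcdh10b, sema3h and sema6ca, and among the falls efna3b, were each lost without 2 or more of the 6 arrays.

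In wild type, markers of several tissues were higher with the RPE attached: 7 of 8 RPE and melanin genes were higher in the RPE-attached arrays (7.58 to 7.89 against 5.93 to 6.10 per array), as were 11 of 18 mesenchyme and cartilage genes (5.64 to 6.05 against 5.16 to 5.26), 4 of 5 endothelial genes (5.83 to 5.91 against 5.37 to 5.54), 6 of 18 muscle genes and 4 of 13 epidermal genes, against 15.4% of all named genes. Their part in the rises of efnb1, ephb4b, sema3d and the others was not tested, and the RPE-attached arrays also differed from the bare ones in poly-A control signal (5.78 ± 0.05 against 5.04 ± 0.21).

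Comparing the genotype difference between RPE-attached and bare retina, a comparison added after the data were seen, called 4 genes higher and 2 lower, against 12.5% and 9.34% of all named genes. The higher ones were efnb2b (0.91), plxnb2a.1 (0.76), lrrc4.1 (0.85) and cdh15 (0.42), of which lrrc4.1 was dim in both mutant groups and cdh15 in all groups, and the lower ones were ephb2b (-0.56) and l1camb (-0.50). The count was 10 higher and 4 lower without mutant RPE-attached array 1, and 4 higher and 0 lower without wild-type retina array 1. Shares of all named genes without these arrays were not counted. Calls were lost for cdh15 without 3 of 12 arrays (adjusted p up to 0.0522), ephb2b without 8 (0.0863) and l1camb without 9 (0.1).

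Genes that work with these families but lie outside the name rule were taken as a separate list of 127 growth cone, cytoskeletal and synaptic adhesion genes, of which 51 were on the array. In mutant retina 18 fell and 3 rose, in RPE-attached retina 18 fell and 12 rose, and in embryos 5 fell and 0 rose (limma; medians -0.05, -0.12 and -0.07). Among all named genes 9.50% fell and 10.1% rose in retina, 21.3% and 28.2% in RPE-attached retina and 3.66% and 3.73% in embryos, and the 12 rises among 51 genes in RPE-attached retina are below that share. The growth cone protein gene gap43, also a ganglion cell marker, fell by 2.05, 2.09 and 0.88 in the 3 tissues. The Ena/VASP-type gene evlb fell by 2.00, 1.56 and 0.51, ablim1a, which encodes an actin-binding LIM protein, by 1.40, 1.46 and 0.46, and the presynaptic adhesion gene nrxn1a by 1.70, 1.68 and 0.71. The Rac GTPase gene rac3b fell by 1.62 and 1.08 in the 2 retinal tissues. Against these, rgma, which encodes a repulsive guidance molecule, rose in both retinal tissues, by 1.38 and 0.97; it was picked after its values were seen. The junction gene jupa rose in RPE-attached retina alone of the 3 tissues, by 1.83, and read a difference of 0.13 in bare retina.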

How the data were processed

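Whole embryos, bare retinas and RPE-attached retinas of wild-type and young (smarca4) zebrafish were hybridized to Affymetrix arrays, 1 pool per array and 3 arrays per group. The authors deposited log2 signals per probe set, made by RMA in the affy package of R 2.2.0 per the submitters' processing notes. These values were used unchanged. Of 15617 probe sets 115 controls were set aside and 15502 tested. In the platform annotation 10795 had 1 gene symbol, 135 several and 4572 none. Each gene was represented by the probe set whose mean across the 18 arrays was highest, and 9 of the 69 genes had more than 1.

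Group means over all 18 arrays were fitted with limma 3.58.1 (lmFit and eBayes) in R 4.3.3, and p-values were Benjamini-Hochberg adjusted over all tested probe sets. Calls were made at an adjusted p below 0.05. Errors of differences are standard errors from this fit. Tables were handled in Python 3.11.15, and plots were made with matplotlib 3.10.9. The fit was tested on simulated data with independent noise, of the same spread in all groups. Those data held neither the shared deviations of same-numbered arrays described below nor the larger spread of the mutant RPE-attached arrays. The p-values of this fit measure the spread between arrays, including what same-numbered arrays share, and the number of arrays limits precision. That spread was estimated over all 6 groups together. It can understate the spread of the mutant RPE-attached arrays (median SD 0.175, against 0.111 in wild-type RPE-attached arrays). With the compared groups alone, the RPE-attached genotype calls of cdh17, efna5b, lrrc42, pcdh1a6, cntn5, efnb1 and ncam1a were lost.

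Same-numbered arrays of the embryo and retina groups deviated together (r = 0.294 to 0.598 over 18 pairs, each best with its own number), whereas 27 pairs with an RPE-attached group gave -0.201 to 0.156. Their hybridization controls also differed by number, at 10.35 to 10.60 in array 1 and 9.36 to 9.55 in array 3 of these groups. The main calls, and those with an array left out, were made without the numbers and take no account of these shared deviations. A separate fit used the numbers as a block among embryo and retina arrays, and its results are given as those with the block.

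In each comparison the 8 largest called changes per direction without overlap were named, with members known from retinal guidance and adhesion. At most 4 genes of each other list were planned, but more were named from the list of genes outside the name rule. Further members were named to describe their families, after their values were seen. Members and lists were chosen with earlier results of these data known. Alternatives changed the scaling, the probe sets, the arrays fitted, array weights, the block and the threshold.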

Additional observations from a re-analysis of the deposited data

Results flagged for a closer look

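For 12 genes the mutant minus wild-type difference in retina was unequal to that in embryo by the interaction test (limma, adjusted p below 0.05). Of the 69 genes 11 were lower and 1 higher, against 4.42% and 2.80% of all named genes. Retina minus embryo, the log2 value was -2.21 for cntn1b, -1.64 for pcdh10a, -1.47 for lrrc4.1, -1.23 for pcdh19, -1.14 for pcdh10b, -1.11 for cdh18a, -1.05 for robo2, -1.01 for lingo1b, -0.87 for efnb2b, -0.73 for cdh4, -0.66 for nrp2b and 0.66 for sema3d. The nrp2b signal was dim in wild-type and mutant embryos (4.51 and 4.45). That of sema3d was dim in wild-type and mutant bare retina (5.02 and 4.97). A fall of these genes in those tissues could be missed. For all 12 genes the embryo values include retina, whose share was not measured.

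For 6 genes the genotype difference was unequal between RPE-attached and bare retina, in a comparison added after the data were seen. Of the 69 genes 4 were higher and 2 lower (5.80% and 2.90%), below the 12.5% and 9.34% of all named genes. The calls of ephb2b, l1camb and cdh15 were lost without 8, 9 and 3 of the 12 arrays. RPE-attached minus bare, the log2 value was 0.91 for efnb2b, 0.85 for lrrc4.1, 0.76 for plxnb2a.1, 0.42 for cdh15, -0.50 for l1camb and -0.56 for ephb2b. The lrrc4.1 signal was dim in both mutant retinal groups (4.28 and 4.25), so its value follows the wild-type levels (7.16 and 6.28), and cdh15 was dim in all 6 groups. In the RPE-attached groups pool size and the hybridization and poly-A control signals differed along with genotype, and their parts cannot be told apart.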

How the results depend on the processing

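Counts are given as higher and lower members. At an adjusted p below 0.001 they were 0 and 13 in retina (limma), 4 and 13 in RPE-attached retina, 0 and 3 in embryo, 16 higher in wild-type retina over embryo, 1 and 1 in wild-type RPE-attached over bare retina, and 1 and 0 for the RPE-attached minus bare genotype difference; the interaction of retina and embryo had 0 higher. The replicate block over embryo and retina arrays gave 6 higher in retina, 9 lower in embryo and 2 and 19 for the interaction, and it lost no call. Over all arrays the replicate block gave 5 higher in retina and 8 higher for the RPE-attached minus bare difference. That difference had 1 lower member with the compared groups alone and 1 with array weights. Leaving out 1 array gave 1 to 3 higher in retina, 0 to 2 higher for the interaction, 11 to 14 higher in wild-type RPE-attached over bare retina, and 4 to 10 higher and 0 to 4 lower for the RPE-attached minus bare difference. The wild-type retina minus embryo value of ntn1a turned to -0.50 with the mean of its probe sets, which disagree. Over named genes and alternatives, 4552 values kept direction and side of the threshold, 201 lost and 71 gained a call, and 1 reversed. Dim probe sets limit what can be said of the lowest members.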
